A study of Mus musculus with 24 samples.

Results

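Cdx2 binding was compared between organoids of the proximal and of the distal mouse colon after the niche factors had been withdrawn. The material was the peak lists of 6 Cdx2 libraries, 3 from proximal and 3 from distal organoids in WENR-minus medium, out of 24 samples in the series, of which 12 were input samples. On chromosomes 1 to 19 and X, peaks that shared 1 bp or more were joined across the 6 lists, which gave 38776 regions, against 61429 when all 12 Cdx2 lists of the series were joined. A region was called proximal-only when all 3 proximal libraries and none of the distal libraries held a peak in it, distal-only in the opposite case, and shared when all 6 libraries held one.

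The organoids were grown from 3 mice and had been cultured for 4 months with Wnt3a, EGF, Noggin and R-spondin, the factors of WENR-plus medium. The WENR-minus groups stayed in this medium for the first 2 days after plating, after which the factors were withheld for 3 days. Proximal and distal cultures shared one genotype: they were heterozygous for the Cre-inducible BrafV600E allele of B6.129P2(Cg)-Braftm1Mmcm/J mice and for a tdTomato reporter. The labels name no Cre treatment for these cultures. Binding was measured by ChIPmentation, in which a transposase adds sequencing adapters to immunoprecipitated chromatin on the beads. The 6 libraries are named proximal 1 to 3 and distal 1 to 3 by their replicate numbers. The study gives the replicates as cultures of different mice, and the labels do not say whether a number stands for the same mouse at both sites.

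Cdx2 is a homeobox transcription factor that specifies and maintains the intestinal epithelium, and it binds T-rich sites ending in an ATG or ATT core. Wnt and R-spondin keep colon stem cells dividing, Noggin holds back BMP signals and EGF feeds growth, so that organoids without them leave the stem cell state and differentiate. Proximal and distal colon arise from different parts of the embryonic gut tube and keep different expression programmes, in which the Hox genes, homeobox factors that give cells their place along the body, take part.

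The sequence at the summit of 12 regions is shown because these regions carry the comparisons below. Those near Il22, Iltifb, Auts2 and Hoxb4 were proximal-only, and those near Crnn, Cyp11a1 and Olfr166 distal-only. Those near Slc8a1 and Pappa were shared but higher in proximal lists, and those near Vamp4 and Clec2d shared but higher in distal lists. The region near Abca12 ranked at the top of all 6 lists, and the 12 sequences follow in this order. Each is the plus strand of mm10 over 101 bases around the median summit, and capitals mark the Cdx2 motif, with the spelling TTTATGG or TTTATGA or TTTATTG or TTTATTA on either strand.
Il22, chr10:118221094-118221194: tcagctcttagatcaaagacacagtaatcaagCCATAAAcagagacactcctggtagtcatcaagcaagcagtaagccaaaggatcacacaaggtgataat
Iltifb, chr10:118278317-118278417: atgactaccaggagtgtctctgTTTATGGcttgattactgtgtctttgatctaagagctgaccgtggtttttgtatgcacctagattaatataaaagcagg
Auts2, chr5:133113401-133113501: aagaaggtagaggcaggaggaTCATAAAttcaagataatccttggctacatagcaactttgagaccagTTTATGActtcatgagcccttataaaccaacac
Hoxb4, chr11:96316451-96316551: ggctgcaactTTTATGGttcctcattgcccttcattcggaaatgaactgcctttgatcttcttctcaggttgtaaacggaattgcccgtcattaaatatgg
Crnn, chr3:93162579-93162679: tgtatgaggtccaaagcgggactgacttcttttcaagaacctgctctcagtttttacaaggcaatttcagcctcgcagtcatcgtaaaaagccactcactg
Cyp11a1, chr9:57999424-57999524: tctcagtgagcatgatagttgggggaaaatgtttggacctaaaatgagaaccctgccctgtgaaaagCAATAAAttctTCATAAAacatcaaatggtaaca
Olfr166, chr16:19453658-19453758: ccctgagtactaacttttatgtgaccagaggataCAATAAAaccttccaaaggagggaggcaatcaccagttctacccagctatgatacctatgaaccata
Slc8a1, chr17:81790461-81790561: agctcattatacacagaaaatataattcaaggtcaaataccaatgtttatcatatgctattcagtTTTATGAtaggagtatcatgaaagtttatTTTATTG
Pappa, chr4:64879044-64879144: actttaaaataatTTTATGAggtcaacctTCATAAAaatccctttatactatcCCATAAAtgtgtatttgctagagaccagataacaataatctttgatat
Vamp4, chr1:162574824-162574924: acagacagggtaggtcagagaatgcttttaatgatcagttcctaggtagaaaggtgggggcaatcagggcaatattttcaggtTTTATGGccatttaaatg
Clec2d, chr6:129205170-129205270: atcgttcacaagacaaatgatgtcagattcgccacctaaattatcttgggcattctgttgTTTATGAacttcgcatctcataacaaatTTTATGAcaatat
Abca12, chr1:71475830-71475930: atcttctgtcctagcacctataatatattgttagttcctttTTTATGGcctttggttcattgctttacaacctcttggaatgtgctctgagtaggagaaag

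The Pappa window holds 3 Cdx2 motifs, the Auts2, Cyp11a1, Slc8a1 and Clec2d windows 2 each, and the Crnn window none. The TCF/LEF letters CTTTGAT, the site of the factors through which Wnt signals act, lie in the Il22, Iltifb, Hoxb4 and Pappa windows. The Il22 and Iltifb matches are the same stretch, since the Il22 region is repeated within the Iltifb region. These letters were in 2.70% of all 38776 regions and in 4.45% of proximal-only regions.

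The lists differed widely in length, and this bears on each count that follows. On chromosomes 1 to 19 and X the proximal lists held 27909, 15930 and 11401 peaks and the distal lists 21028, 7891 and 7901, numbered by replicate. The proximal mean was 18413 ± 8530 (SD, n = 3) and the distal mean 12273 ± 7582 (SD, n = 3). The groups overlapped, and the log2 difference of 0.65 was within the spread between libraries (two-sided exact permutation test, p = 0.300, smallest possible p 0.1). The lists themselves give no read totals, and the library totals that the study states were not used here, so list length was not set against depth. A region missing from a list was not called rather than shown to be unbound. Counts are therefore also given for lists cut to the length of the shortest, 7891 peaks, by the deposited −log10 p. Each region was also assigned to the nearest protein-coding start site within 100 kb, which gave a shared region to 9.32% of all 21728 protein-coding genes. Of 8 epithelial markers 6 had one (Epcam, Vil1, Krt8, Krt19, Krt20 and Cdh17), and 0 of 6 fibroblast and muscle markers and 0 of 6 blood and vessel markers. A region of any class was assigned to 8 of 8, 3 of 6 and 2 of 6 of these markers, against 45.1% of all genes. A proximal-only region was assigned to Pecam1, a vessel marker, in lists of equal length. Peak lists hold no expression, so this is a reading of binding near the markers only.

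Most regions were called in few libraries, and regions that separated all libraries of one site from all of the other were a small part of the binding map. Of the 38776 regions, 17677 (45.6%) were called in 1 library and 3305 in all 6. Proximal-only regions numbered 1258 (3.24% of all regions) and distal-only regions 203 (0.524%). Of the 7000 regions called in all 3 proximal libraries, 47.2% were also called in all 3 distal libraries and 18.0% in none. Of the 4397 called in all 3 distal libraries, 75.2% were called in all 3 proximal libraries and 4.62% in none.

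Equal list length brought the counts of the 2 sites closer together. In lists of equal length, 556 proximal-only regions (3.22% of 17241) stood against 280 distal-only regions (1.62%). The ratio of proximal-only to distal-only regions thus went from 6.20 in full lists to 1.99 in equal lists. It was above 1, from 1.99 to 7.83, in 7 alternative choices of lists and libraries, these equal lists among them. Of the 7, 2 used equal lists. Of the regions of the full lists, 409 proximal-only (32.5%) and 111 distal-only (54.7%) fell in the same class again after the cut. These classes were defined by the calls, so the counts describe them and carry no test.

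**Figure D1:**
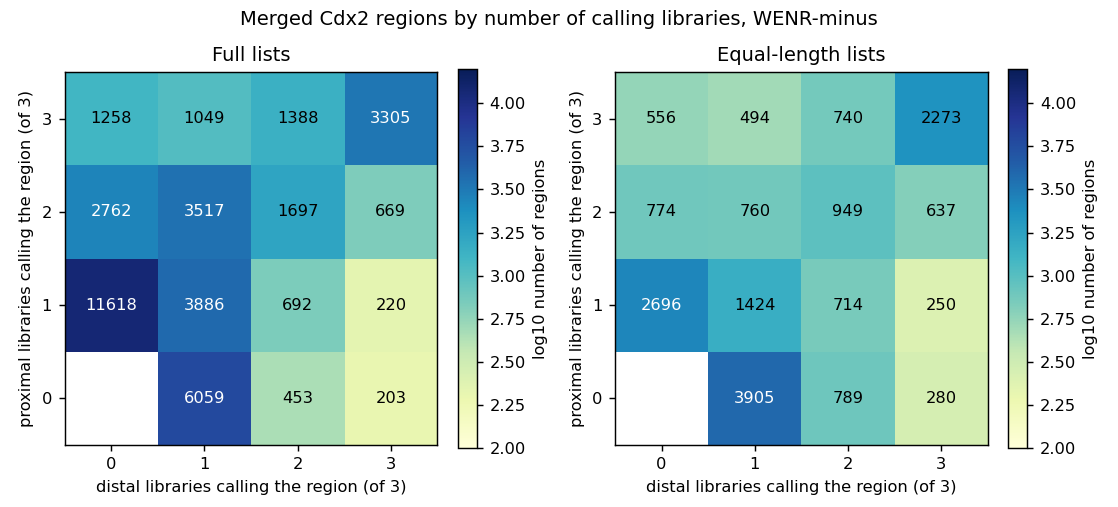
Number of merged Cdx2 regions by how many of 3 proximal libraries (vertical axis) and how many of 3 distal libraries (horizontal axis) called them, in full lists (left) and lists of equal length (right), with colour on a log10 scale. Proximal-only regions are the upper left cell (1258 and 556), distal-only regions the lower right cell (203 and 280), and regions called in all 6 the upper right cell (3305 and 2273).

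Among the 500 strongest peaks, libraries of one site shared more on average than libraries of different sites. Among the 500 peaks of each list with the highest −log10 p, the shared part of the joined regions was 0.522 on average for pairs of proximal libraries (0.460 to 0.606), 0.431 for pairs of distal libraries (0.343 to 0.509) and 0.368 for proximal and distal libraries of the same number (0.335 to 0.387). It was 0.337 (0.284 to 0.400) for proximal and distal libraries of different numbers, so the ranges of distal pairs and of pairs across sites overlapped. At the full 7891 peaks the proximal and distal pairs gave 0.485 and 0.410, and the pairs of the same number across sites 0.414, no lower than distal pairs. There the lowest proximal pair (0.396) also lay below the highest pair across sites (0.448). Within the 3305 shared regions the ranks of fold, the deposited enrichment over local background, correlated at 0.61 to 0.80 between proximal libraries, 0.50 to 0.68 between distal libraries and 0.39 to 0.62 between the sites. These correlations are across regions of the same lists, which are not independent replicates.

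The strongest proximal-only regions had folds near the top of every proximal list, whereas those of the strongest distal-only regions stood somewhat lower in the distal lists. Strength within a list is given as the percentile of fold among the peaks of that list. The 10 strongest proximal-only regions had mean percentiles of 96.1 to 99.3, and the 10 strongest distal-only regions 84.7 to 96.5. They were taken from 409 and 111 regions, and a larger pool can give higher top values. The classes as a whole were weaker. The median proximal-only region stood at percentile 73.4, 48.6 and 54.6 of proximal lists 1 to 3, the median distal-only region at 65.2, 45.6 and 42.6 of the distal lists, and the median shared region at 71.7 to 91.9 of the 6 lists.

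A region downstream of Il22, the gene of a cytokine that acts on epithelial cells, was the strongest proximal-only region, with folds of 23.5, 27.6 and 37.0 in proximal 1 to 3. It spans chr10:118220567-118221716 and lies 16.2 kb past the Il22 start site in intergenic sequence. A second region, chr10:118277685-118278930, lies 16.7 kb downstream of Iltifb, a copy of Il22, with folds of 27.1, 23.0 and 36.3. All 1150 bases of the Il22 region occur unchanged, in the opposite orientation, within the Iltifb region 57.2 kb away. Reads from these copies cannot be told apart, and the values of both regions are uncertain.

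The region 572 kb upstream of Auts2, a transcriptional regulator known from brain development, had folds of 32.8, 25.8 and 26.3, at percentile 99.1 or above in each proximal list. In an intron of St6galnac1, a sialyltransferase that modifies mucin-type glycans, the folds were 25.5, 24.1 and 31.8. An intronic region of Lingo2, a leucine-rich repeat membrane protein, had folds of 24.2, 22.5 and 38.1. Upstream of Sqor, the mitochondrial enzyme that oxidises hydrogen sulfide, a region at 4.33 kb had folds of 23.4, 18.8 and 24.8. Hoxb4, a homeobox gene, had a region 1.77 kb upstream with folds of 23.4, 15.9 and 24.4. The other 3 of the 10 lay 0.208 kb upstream of Defb37, a beta-defensin, in an intron of Csgalnact1 with Sh2d4a as the nearest start site 151 kb away, and 2.95 kb inside Ccdc58. Their folds ran from 12.0 to 21.5. All 10 were called in 3 of 3 proximal and 0 of 3 distal WENR-plus lists.

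The strongest distal-only region lay 14.4 kb downstream of Crnn, which encodes cornulin, a protein of squamous epithelium, with folds of 14.2, 11.4 and 14.8 in distal 1 to 3. A region 6.94 kb upstream of Cyp11a1, the enzyme that starts steroid synthesis, had folds of 13.2, 11.0 and 11.9. In an intron of Muc16, a membrane mucin, the folds were 10.3, 9.86 and 9.84. An intron of Pam, which amidates peptide hormones, gave 8.71, 9.07 and 10.5. The folds of the other 6, near Olfr166, Rgs6, Slc35g2, Klf5, Cntnap5a and Tecrl, ran from 7.28 to 11.6. The Klf5 region lies 311 kb downstream of the start site of this crypt transcription factor and had folds of 9.04, 8.68 and 8.39. Of the 10 distal-only regions, 9 were called in all 3 distal WENR-plus lists and the Cntnap5a region in 2. The Cyp11a1 and Pam regions were each called in 1 proximal WENR-plus list as well.

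**Figure D2:**
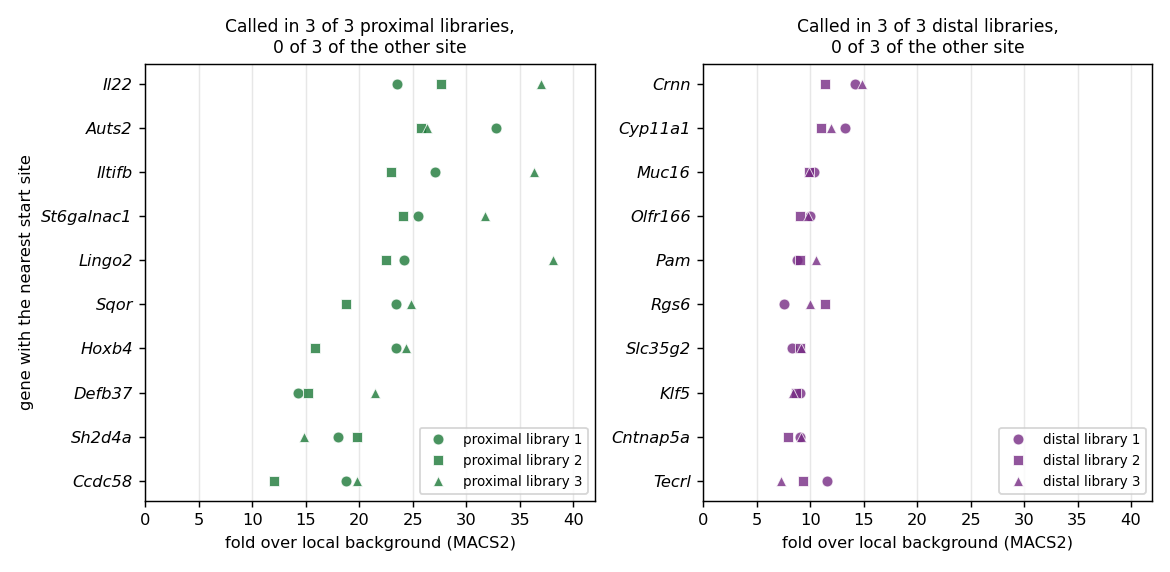
Fold over local background (MACS2, linear axis) at the 10 strongest proximal-only regions (left, 3 proximal libraries) and the 10 strongest distal-only regions (right, 3 distal libraries), named by the nearest protein-coding start site, with one symbol per library. Proximal-only folds ran from 12.0 to 38.1 and distal-only folds from 7.28 to 14.8, and libraries of the other site have no value because no peak was called.

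Promoters of protein-coding genes held a minor share of each class. Within 3 kb of a protein-coding start site were 7.23% of proximal-only regions (95% Wilson interval 5.93 to 8.80), 8.87% of distal-only regions (5.68 to 13.6) and 10.5% of shared regions (9.53 to 11.6), against 8.36% of all 38776 regions. The intervals of both site-restricted classes hold the share of all regions. They touched 94 genes in the proximal-only and 18 in the distal-only class. After Hoxb4, Defb37 and Ccdc58, the strongest proximal-only promoter region was at Adam18, a sperm surface protein, with folds of 12.4 to 13.8. Others were at Bcl2l15 (8.84 to 11.5), Scarb1, a receptor for high-density lipoprotein (7.36 to 16.3), Slc17a2 (9.13 to 9.91), Gm11111 (7.52 to 12.6) and Gm7879 (8.15 to 10.7).

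The strongest distal-only promoter regions were weaker than the strongest proximal-only ones. They were taken from 18 genes against 94, and a larger pool can give higher top values. The strongest distal-only one was 1.44 kb upstream of Steap2, a metalloreductase, with folds of 8.71, 6.70 and 8.48. Behind it were Greb1, an oestrogen-responsive gene (6.13 to 7.34), Uri1 (5.59 to 7.42), the zinc-finger factor Klf6 (5.76 to 6.46), Cxcl10, a chemokine (4.73 to 8.39), Aasdh (5.13 to 8.48), the transcription factor Mecom (4.89 to 7.42), Hoxa7 (4.73 to 7.46), the citrate synthase gene Cs (5.13 to 5.49) and Ppp2r3d (4.89 to 6.13). The Cs promoter was called in no WENR-plus list, and those of Uri1, Klf6, Cxcl10 and Hoxa7 were each called in 1 or 2 proximal WENR-plus lists.

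Site-restricted regions were spread over many genes. When each region was assigned to the nearest protein-coding start site within 100 kb, 957 proximal-only regions fell to 850 genes and 151 distal-only regions to 144 genes. Those are 3.91% and 0.663% of the 21728 protein-coding genes. Smap1, Zfp280d and Vav3 had 4 proximal-only regions each, of 7, 11 and 14 regions in all. Arid5b and Lingo2 were among 10 genes with 3 each. At Arid5b, a DNA-binding factor, they lay within 12.3 kb of each other, at a mean percentile of 75.6. Ptprq had 3 distal-only regions of 6 in all, and Cyp11a1, Nxpe4, Ppargc1b and Klf6 were among 5 genes with 2. In 20 genes both kinds occurred, among them Klf6 with 1 proximal-only, 2 distal-only and 6 shared regions, and Ppargc1b, a coactivator of mitochondrial genes, with 2 of each site and 1 shared. Of the genes with a proximal-only region, 31.2% also had a shared region, and of those with a distal-only region 38.2%. A shared region lay within 100 kb of 41.3% of proximal-only, 47.3% of distal-only and 28.1% of the other regions.

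Most proximal-only regions were found again in proximal organoids that had kept their niche factors, and few in distal ones. The WENR-plus libraries did not enter the definition of the classes, although they come from the same organoid lines and so do not add animals. Proximal-only regions were called in 87.3%, 89.5% and 80.4% of cases in the 3 proximal WENR-plus libraries and in 4.93%, 19.5% and 8.90% in the 3 distal ones. The proximal WENR-plus lists were longer, with 32021, 42177 and 13587 peaks against 7371, 13362 and 5604. The means were 85.7% ± 4.72 and 11.1% ± 7.52 (SD, n = 3 each), and the groups did not overlap (two-sided exact permutation test, p = 0.1, the smallest possible). Distal-only regions were called in 39.4%, 70.9% and 47.8% of cases in the distal and in 15.3%, 18.2% and 6.90% in the proximal WENR-plus libraries, 52.7% ± 16.3 against 13.5% ± 5.88 (SD, n = 3 each), again with no overlap and an exact p of 0.1.

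Shared regions, for comparison, were called at 98.0% ± 1.72 in proximal and 82.3% ± 10.7 in distal WENR-plus libraries (SD, n = 3 each, exact p = 0.1).

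The separation was also present in all 12 lists cut to 5604 peaks, with the classes chosen anew. There, the 473 proximal-only regions were called at 64.6% ± 8.76 in proximal and 12.6% ± 3.17 in distal WENR-plus libraries, and the 205 distal-only regions at 9.27% ± 0.976 and 61.8% ± 8.40 (SD, n = 3 each). Groups did not overlap in either class (exact p = 0.1 for each), while shared regions stood at 92.4% ± 1.77 and 88.7% ± 3.74 (exact p = 0.200). In the full lists, 642 of the 1258 proximal-only regions had a peak in every proximal WENR-plus list and in no distal one, and 34 of the 203 distal-only regions in all 3 distal and no proximal one. In no WENR-plus list at all were 49 proximal-only and 37 distal-only regions.

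**Figure D3:**
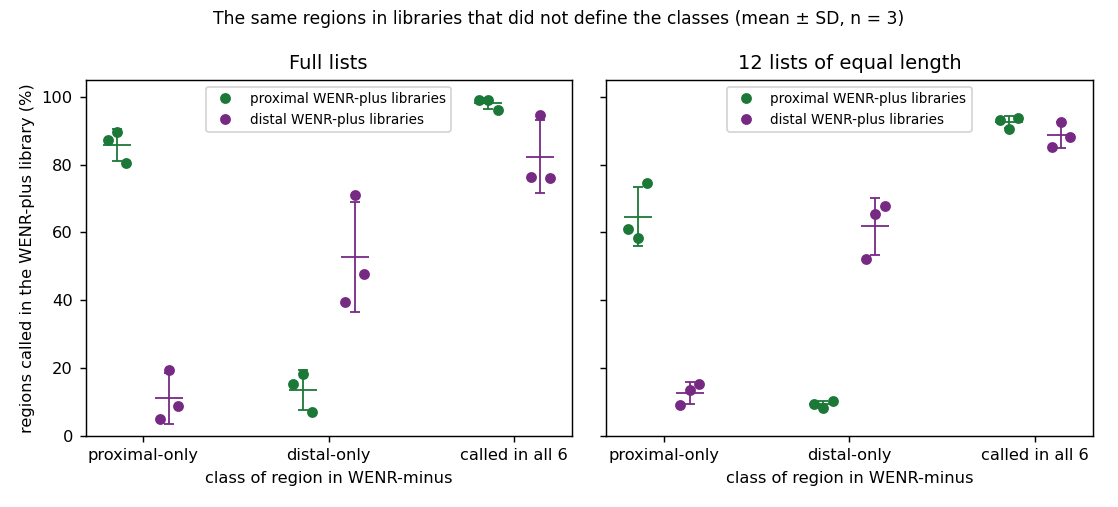
Share of each class of region, as defined in WENR-minus, that was called in each WENR-plus library (vertical axis, percent; points are libraries, bars the mean ± SD of 3), in full lists (left) and in 12 lists of equal length (right). For proximal-only regions the proximal libraries sit at 80.4% to 89.5% and the distal ones at 4.93% to 19.5% in full lists, and for distal-only regions the order is the opposite.

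At regions bound at both sites, 64 differed in strength. For this test the fold of each of the 3305 shared regions was turned into its percentile among these regions in the same library, so that the length of a list does not set its percentiles, and the percentiles were fitted with limma. In 41 regions (1.24% of 3305) the percentile was higher in proximal and in 23 (0.696%) higher in distal libraries at a Benjamini-Hochberg adjusted p under 0.05, the lowest being 0.0156. No region passed when replicate 1, 2 or 3 was left out at both sites (lowest limma adjusted p of 0.283, 0.265 and 0.263), with the replicate number as a block (0.139), or when percentiles within the whole list were used (0.0664). At an unadjusted p under 0.05 there were 308 and 274 regions.

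The largest difference was at a region 52.1 kb upstream of Slc8a1, a sodium-calcium exchanger, with percentiles of 89.5, 89.2 and 91.1 in proximal and 13.8, 13.8 and 3.86 in distal libraries. Its difference was 79.4 ± 5.39 percentile points (SE, limma adjusted p = 0.0156). In an intron of Smg6, a nuclease of RNA surveillance, the percentiles were 89.8, 92.9 and 97.7 against 4.60, 34.6 and 3.40. An intron of the LIM-homeobox gene Lmx1b gave 80.2, 80.0 and 75.4 against 1.51, 4.57 and 9.79. For a region 245 kb upstream of Pappa, a protease of growth factor binding proteins, they were 92.3, 90.6 and 97.8 against 18.3, 20.4 and 26.5. The promoter of Apol10a, of the apolipoprotein L family, gave 92.3, 93.8 and 91.1 against 18.3, 34.6 and 11.1.

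Higher in distal libraries was a region 72.1 kb upstream of Boc, a co-receptor of hedgehog signals, with 90.7, 92.6 and 93.1 in distal and 1.92, 5.70 and 39.7 in proximal libraries. That is a difference of -76.4 ± 11.0 points, proximal minus distal (SE, limma adjusted p = 0.0484). In Vamp4, which takes part in vesicle fusion, the distal percentiles were 82.4, 70.0 and 83.9 and the proximal ones 2.59, 10.7 and 16.1. An intron of Pan3, of a complex that shortens mRNA tails, gave 70.6, 74.1 and 83.9 against 13.9, 7.08 and 6.20. Near Tigd4 the values were 78.0, 67.9 and 92.1 against 28.7, 8.87 and 1.12, and near Clec2d, a C-type lectin, 92.8, 95.5 and 76.3 against 44.8, 22.4 and 18.4. These 10 regions were chosen as the largest differences, and among all 3305 shared regions the groups did not overlap in 399 with higher proximal and 374 with higher distal values.

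Some further regions called in the proximal direction are named here. They lay near Isx, a homeobox gene of the intestine, at 51.0 ± 5.60 points (limma adjusted p = 0.0270), Pparg, a nuclear receptor of fatty acids, at 52.0 ± 7.93 (limma adjusted p = 0.0489), and Myc, the growth regulator and Wnt target, at 46.9 ± 7.42 points (limma adjusted p = 0.0489). Others lay near the glucocorticoid receptor gene Nr3c1 (69.6 ± 10.3), the mineralocorticoid receptor gene Nr3c2 (58.4 ± 9.01), the protease gene Tmprss2 (69.8 ± 7.15) and the claudin gene Cldn8 (57.0 ± 6.80), and these 4 were picked from the called regions after their values had been seen. In the distal direction a region upstream of Lrp6, a Wnt co-receptor, picked in the same way, differed by -52.6 ± 6.42 points (SE, limma adjusted p = 0.0376).

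The direction of these differences was mostly the same in the WENR-plus libraries. Of the 41 regions higher in proximal lists, 24 were called in at least 2 WENR-plus libraries of each site, and in all 24 the mean WENR-plus percentile was higher in proximal libraries, against 53.8% of all 2836 shared regions that could be compared. Of the 23 regions higher in distal lists, 20 could be compared and 18 were higher in distal libraries, against 46.2% of all shared regions. The wider sets at an unadjusted p under 0.05 gave 204 of 227 (89.9%) and 196 of 248 (79.0%). Libraries of both media come from the same organoid lines.

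The 5 strongest shared regions, those with the highest lowest percentile over the 6 lists, were near Abca12 and Abca8b, lipid transporters, Prkg2, the cGMP-dependent kinase of intestinal fluid secretion, Rnf139, a ubiquitin ligase, and Acnat1, an acyltransferase. At the Abca12 region, chr1:71475323-71476845, the folds were 58.0, 51.3 and 52.6 in proximal and 38.1, 37.1 and 38.1 in distal libraries, with every distal fold below every proximal one. It ranked at percentile 99.9 or above in all 6 lists, and this choice leaves its percentile no room to differ between the sites. The summit window of the Rnf139 region occurs at 8 places in the genome, so its value is uncertain, while 49 of the 52 windows of named regions occur at 1 place.

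**Figure D4:**
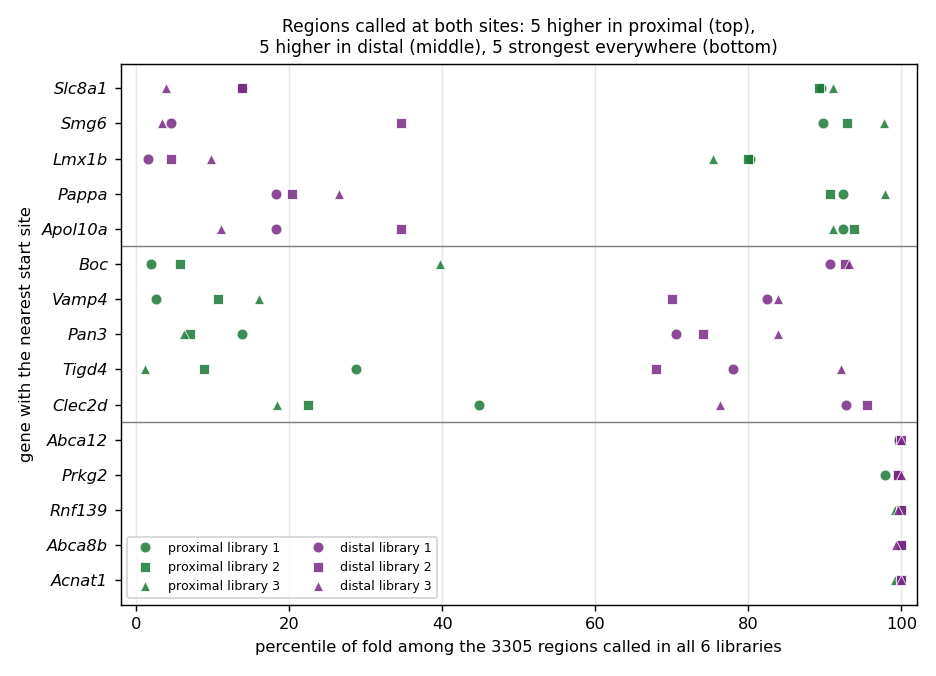
Percentile of fold among the 3305 regions called in all 6 libraries (horizontal axis) at 5 regions higher in proximal, 5 higher in distal and the 5 strongest shared regions, named by the nearest protein-coding start site, with one symbol per library (green proximal, purple distal). In the upper 5 the proximal libraries lie between 75.4 and 97.8 and the distal ones between 1.51 and 34.6, the middle 5 show the opposite order, and the lower 5 lie close to 100.

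Klf5 had regions of both directions. It had the distal-only region 311 kb downstream of its start site described above, and a shared region 347 kb downstream that was higher in proximal libraries by 50.6 ± 7.39 points (SE, limma adjusted p = 0.0484), picked after its values had been seen.

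The Hox clusters held regions of each class. Of 39 Hox genes, 4 (10.3%) had an assigned proximal-only region, against 3.91% of all protein-coding genes, and 1 (2.56%) had distal-only regions, against 0.663%. Shared regions were assigned to 10 (25.6%), against 9.32% of all genes. The proximal-only regions were at Hoxb4, Hoxb6, Hoxb8 and Hoxd9. Besides the upstream region described above, Hoxb4 had one 1.18 kb downstream of its start, with percentiles of 96.1, 96.1 and 91.2 in proximal 1 to 3. A region 50 bp upstream of Hoxb6 stood at 88.9, 59.0 and 82.9, and one 1.02 kb downstream of Hoxb8 at 77.9, 81.0 and 43.9. All 4 Hoxb regions were proximal-only again in lists of equal length. The region 3.32 kb downstream of Hoxd9 had percentiles of 63.0, 87.6 and 64.4 and was called in 2 of 3 proximal lists after the cut.

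The Hox gene to which distal-only regions were assigned was Hoxa7, with one 1.21 kb downstream of its start at percentiles of 72.4, 18.8 and 73.0 in distal 1 to 3, and one 1.94 kb upstream at 83.4, 9.25 and 8.30. Both were weak in at least 1 distal list. In WENR-plus medium the upstream Hoxb4, the Hoxb8 and the Hoxd9 regions were called in 3 proximal and 0 distal libraries. The downstream Hoxb4 region was called in 3 proximal and 2 distal libraries, and the Hoxb6 region in 3 and 1. Both Hoxa7 regions were called in 2 proximal libraries, and the distal count, given here for the downstream one only, was 2. The strongest shared Hox region was assigned to Hoxa5, 3.54 kb downstream of its start, with percentiles of 99.1 or above in all 6 lists.

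Shared regions were the most frequent class at genes of colonocyte differentiation. Of 30 such genes, 14 (46.7%) had an assigned shared region, against 9.32% of all genes, 0 a proximal-only region (3.91% of all genes) and 1 a distal-only region (0.663%). The shared ones include Car1, a carbonic anhydrase, Slc26a3, the chloride and bicarbonate exchanger, Slc9a3, a sodium and proton exchanger, and Scnn1a, a subunit of the epithelial sodium channel. The distal-only region was at Mep1b, a subunit of the brush border protease meprin, at percentiles of 25.7, 50.3 and 15.5 in distal 1 to 3, all in the lower or middle part of the lists. In lists of equal length 2 of the 30 had a proximal-only region (Car4 and Mep1a), against 1.80% of all genes, and 3 a distal-only one (Car2, Slc26a3 and Mep1b), against 0.920%. In the cut lists 13 of the 30 had a shared region, against 6.94%.

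Genes known from small-intestinal enterocytes had their strongest regions at both sites. Of 24, 5 (20.8%) had a shared region, against 9.32% of all genes, namely Sis, Mgam, Slc10a2, Slc15a1 and Cubn. The region 31.6 kb from the start of Slc10a2, the ileal bile acid transporter, stood at percentiles of 98.3 to 99.5 in the 6 lists. A proximal-only region was assigned to 4 (16.7%, against 3.91%), Sis, Slc2a2, Slc15a1 and Cubn, and a distal-only one to 2 (8.33%, against 0.663%), Mgam and Rbp2. Sis encodes sucrase-isomaltase, Slc2a2 a glucose transporter, Slc15a1 a peptide transporter and Cubn a receptor for vitamin B12 uptake. The proximal-only regions had percentiles of 7.44 to 70.5 in the proximal lists. At Mgam, an enzyme of starch digestion, they ran from 9.25 to 25.7 in the distal lists, and at Rbp2, a retinol carrier, from 9.25 to 34.0. Neither distal-only region was called in any WENR-plus list. In lists of equal length the counts were 0 (against 1.80% of all genes) and 1 (Mgam, 4.17%, against 0.920%).

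Of 22 stem cell and Wnt target genes, 5 (22.7%) had a shared region, against 9.32% of all genes, namely Axin2, Rnf43, Lrig1, Myc and Prom1. The strongest, 6.45 kb from the start of Prom1, a membrane protein of stem cells, stood at percentile 98.6 or above in all 6 lists. Proximal-only regions were assigned to 4 (18.2%, against 3.91%) and distal-only regions to 0 (0.663% of all genes). The 4 were Rnf43, a ligase that removes Wnt receptors, Lrig1, a stem cell regulator, Myc, and Tnfrsf19, a receptor of stem cells. The Myc region, 86.8 kb downstream, had percentiles of 92.4, 40.3 and 79.4 in proximal 1 to 3, and the region 10.2 kb upstream of Rnf43 had 87.2, 64.6 and 40.6. Both Rnf43 regions were called in all 3 distal WENR-plus libraries. In lists of equal length 1 gene (4.55%, against 1.80%) had a proximal-only region (Rnf43) and 1 (4.55%, against 0.920%) a distal-only region (Lrig1).

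Of 28 secretory lineage genes, 4 (14.3%, against 9.32% of all genes) had a shared region, namely Atoh1, Zg16, Klf4 and Cck. Proximal-only regions were assigned to 3 (10.7%, against 3.91%) and distal-only regions to 0 (0.663% of all genes). These 3 were Spink4, a goblet cell product, Klf4, a factor of goblet cell maturation, and Cck, an enteroendocrine hormone. In lists of equal length 1 (3.57%, against 1.80%) had a proximal-only region (Atoh1) and 2 (7.14%, against 0.920%) a distal-only region (Gfi1 and Klf4). The members thus changed with the length of the lists.

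Transcription factors of the intestine had proximal-only regions at 3 of 28 (10.7%, against 3.91% of all genes), shared regions at 10 (35.7%, against 9.32%) and distal-only regions at 0 (0.663% of all genes). Nr1h4, the bile acid receptor FXR, had 2 proximal-only regions, one 6.12 kb upstream at percentiles of 83.3, 73.1 and 81.2 and one 9.30 kb upstream at 85.2, 44.5 and 77.0. The Hnf4a region 0.338 kb upstream was weaker, at 52.7, 25.1 and 32.2. Nr1h4 had a proximal-only region in lists of equal length too, as did Ppara, a nuclear receptor of fatty acids.

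Of 24 growth factor and BMP signalling genes, 8 (33.3%, against 9.32% of all genes) had a shared region, among them Egfr, Ereg, Dusp6 and Bmp2. Proximal-only regions were assigned to 2 (8.33%, against 3.91%), Ereg, an EGF receptor ligand, and Dusp6, a feedback phosphatase of MAP kinase signals. A distal-only region was assigned to 1 (4.17%, against 0.663%), Bmp2, a BMP ligand, with percentiles of 15.5, 29.2 and 4.04 in distal 1 to 3. In lists of equal length the counts were 0 (against 1.80% of all genes) and 1 (4.17%, against 0.920%). The genes that the study edited because they are silenced in colon cancer, with Apc and Ctnnb1, had 0 site-restricted and 0 shared regions among 6, while 5 of them had a region of another class and 3 (Cdx2, Cdkn2a and Apc) one at the promoter. None of these lists was tested against other genes.

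The share of summits with the Cdx2 motif was highest in shared and lowest in distal-only regions. Within 50 bp of the summit it was present in 69.9% of shared regions (95% Wilson interval 68.3 to 71.4), 59.5% of proximal-only regions (56.7 to 62.1) and 44.3% of distal-only regions (37.7 to 51.2), against 10.5%, 10.6% and 9.85% of windows 1000 bp to either side. Over all 38776 regions the share was 61.4%, which the proximal-only interval holds. The intervals cover counting error over regions, which are not replicates. In the regions kept in lists of equal length the shares were 66.3% (61.5 to 70.7) for proximal-only regions, which overlaps the interval of shared regions, and 47.7% (38.7 to 57.0) for distal-only regions, which does not. Of the 4 spellings, TTTATGA was in 29.2% of shared, 16.2% of proximal-only and 15.3% of distal-only regions, and TTTATGG in 20.2%, 17.8% and 14.3%.

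Other motifs were searched on both strands with 1 spelling each, and each was counted on its own where it overlaps a Cdx2 motif. The AP-1 letters TGANTCA were in 12.6% of shared (11.5 to 13.7), 9.62% of proximal-only (8.11 to 11.4) and 13.8% of distal-only regions (9.72 to 19.2), and in 7.63% of all 38776 regions. The TCF/LEF letters CTTTGAT were in 2.63% of shared (2.14 to 3.24), 4.45% of proximal-only (3.44 to 5.74) and 1.97% of distal-only regions (0.769 to 4.96), and in 2.70% of all. For the FOXA letters TGTTTAC the shares were 2.78%, 4.13% and 1.48%, and 2.68% of all. The letters AGATAAG of GATA factors were in 2.90%, 3.74% and 3.94%, and in 2.14% of all. HNF4 (CAAAGTCCA) was in 1.09%, 0.477% and 0% (upper bound 1.86%) of the same classes, and in 0.534% of all. KLF (GGGTGTGG) was in 1.21%, 1.51% and 1.97%, and in 0.756% of all. CTCF letters were in 1 shared region and in none of the proximal-only or distal-only regions.

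**Figure D5:**
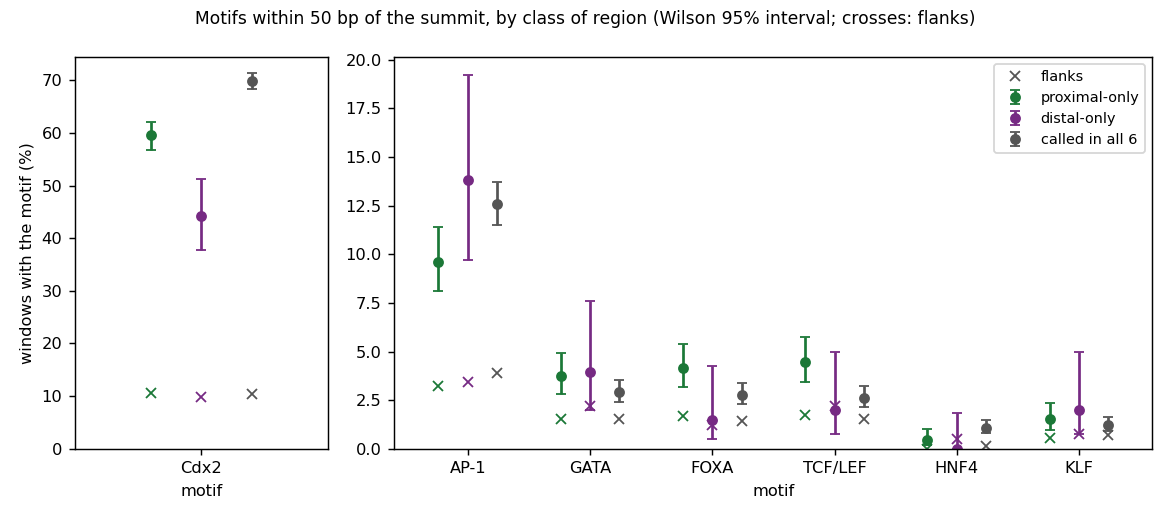
Share of regions with a motif within 50 bp of the median summit (vertical axis, percent; the Cdx2 motif on the left and the others on the right, on different scales; points are proximal-only, distal-only and shared regions, lines the 95% Wilson intervals and crosses the flanking windows). The Cdx2 motif stands at 59.5%, 44.3% and 69.9% in these classes, and the TCF/LEF letters at 4.45%, 1.97% and 2.63%.

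No difference in motif content was detected between whole lists of the 2 sites. The Cdx2 motif lay within 50 bp of 57.5%, 65.5% and 48.0% of the summits of proximal 1 to 3 and of 65.2%, 58.6% and 49.8% of those of distal 1 to 3. The groups overlapped, and the difference of -0.874 percentage points was within the spread between libraries (two-sided exact permutation test, p = 0.800). In both groups replicate 3 had the lowest share. Summits within 3 kb of any transcript start made up 18.3% ± 2.77 of proximal and 18.6% ± 2.70 of distal lists (SD, n = 3 each, exact p = 1.00). For the TCF/LEF letters the shares were 2.66%, 2.84% and 3.08% against 2.48%, 2.69% and 2.61%, which overlapped, with an exact p of 0.200. They did not overlap in lists of equal length, with a difference of 0.477 percentage points, or within 100 bp of the summit, with 0.565 (exact p = 0.1 for each, the smallest possible).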

How the data were processed

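Peak lists of 12 Cdx2 ChIPmentation libraries, 4 groups of 3 by colon site and medium, were used, and files of the 12 input samples were not used here. Per the submitters' processing notes and the paper's methods, reads were trimmed by the authors (Trimmomatic 0.39, FastQC), who then aligned them to mm10 (Bowtie2 2.4.5), removed duplicates (SAMtools 1.13) and called peaks per library against the matched input (MACS2 2.2.7.1). deepTools 3.5.1 is also named. These versions are those of the processing notes, and the paper's supplement gives other versions of Bowtie2 and SAMtools. Each deposited line gives a score, which the authors' MACS2 run derives from the q-value, the deposited fold over local background (a ratio), the deposited −log10 p-value and −log10 q-value, and a summit offset in bp. The lists hold no read counts, so the read-based comparison of the study could not be repeated. The library totals that the study states were not used here.

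Peaks on chromosomes 1 to 19 and X were joined at an overlap of 1 bp. A call needs a library to pass a fixed q-value, so longer lists call more regions, and lists cut to 7891 peaks by −log10 p were therefore used beside the full lists. Sequence and annotation were GRCm38.p6 (the assembly of mm10) and GENCODE vM21, with positions 1-based. A region was named by the nearest protein-coding start site to its median summit and counted for a gene within 100 kb. A promoter is within 3 kb of a start site. Motifs were searched within 50 bp of the summit.

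Numbers and shares per list were compared with two-sided exact permutation tests. Shared regions were tested with limma 3.58.1 (R 4.3.3) on percentiles re-ranked among them, with Benjamini-Hochberg adjustment over all of them, a step tested on simulated data. Tables were handled with Python 3.11.15, pandas 2.3.3, numpy 2.4.6 and pysam 0.24.0. Wilson intervals cover counting error only. P-values measure the spread between these libraries.

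Named regions were the 10 strongest per site in both full and equal lists, the 10 strongest promoter genes per site, the 5 largest differences per direction and the 5 strongest regions called in all 6, the 5 genes per site with most site-restricted regions, and members of fixed gene lists. Some of the regions that this rule names are not reported here. Regions, lists and rules were chosen with earlier results of these data known. Leaving out replicates, stricter peaks, equal lists, summit windows, other scales and a replicate block were tried as alternatives, and the block and left-out replicates for the WENR-plus shares were added after the data were seen.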

Additional observations from a re-analysis of the deposited data

Results flagged for a closer look

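Peaks outside chromosomes 1 to 19 and X were not used in any comparison. On chromosome Y the 6 lists held 49 peaks, 3 to 12 per list, although the methods give the mice as female, and 44 of them lay past 90 Mb. On the mitochondrial genome there were 24 peaks, 1 to 7 per list, and on unplaced contigs 453, 58 to 103 per list. Each was noted because it is signal in data that no comparison used, and the source of these peaks was not tested.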

How the results depend on the processing

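Proximal-only regions outnumbered distal-only ones under each alternative listed next, but their numbers moved. The 1258 proximal-only regions became 556 and 544 in equal lists cut by −log10 p and by fold, 4020 when 2 of 3 libraries sufficed, 2307 when 1 library of the other site was allowed, and 1996 to 2957 without one replicate. The 203 distal-only regions became 656 and 423 under the same looser rules and 413 to 482 without one replicate. Fewer libraries make the rule easier to meet. The looser rules were applied to full lists, and the proximal lists were longer on average. In lists of equal length, 1330 regions were called in at least 2 proximal and no distal libraries, against 1069 in the opposite case. With at least 1 library of one site and none of the other, the order turned, at 4026 proximal against 4974 distal regions.

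The 41 and 23 differing shared regions depended on the processing. There were 0 and 0 without any one replicate, with the replicate block, with percentiles in the whole list, and for regions called in at least 2 libraries of each site. Unadjusted p under 0.05 was reached by 339 to 946 regions in those fits. Counts higher in proximal and in distal libraries were 94 and 24 with log2 fold, 21 and 10 in equal lists, and 28 and 15 at a −log10 q of at least 5. The cause was not tested. Of the 64, 48 were called again with log2 fold. The 10 named ones never changed direction, but they were chosen as the largest differences in these data, so this carries no support. In 60 of 76 refits of these 10 regions the adjusted p no longer passed the threshold.

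Whether replicate numbers pair the libraries was not settled by the labels or by these values. The paper places most variation in Cdx2 binding between mouse groups, and the next most between colon sites. Its text does not say which libraries share a mouse. If the numbers do mark mice, the block is the matching fit, and no shared region passed in it (lowest limma adjusted p of 0.139). Deviations of same-numbered libraries correlated at 0.07, 0.09 and 0.41, and of others at -0.38 to 0.35. At 7891 peaks per list the mean shared part across sites was 0.414 for same-numbered libraries (0.386 to 0.448). For libraries of different numbers it was 0.375 (0.291 to 0.440), so the ranges overlapped. With the number as a block the peak number difference of 0.65 had an exact p of 0.250, the smallest a paired test allows, so permutation tests with the block say nothing about stability. The same holds without a replicate, where the smallest exact p is 0.333. An absent call is no evidence of absent binding.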
